A study of Mus musculus with 26 samples.

Results

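The genes described here are Trp53, which encodes the transcription factor p53, and 9 genes that p53 is known to regulate: Mdm2, Cdkn1a, Ccng1, Bax, Bbc3, Eda2r, Sesn2, Trp53inp1 and Phlda3. They were chosen by name from the 24340 gene symbols of each of 2 deposited expression tables, and all 10 were present in both. RNA sequencing was done on embryonic mouse forelimbs at E13.5, after removal of the transcriptional repressor gene Hic1 by either of 2 strategies. In the conventional series, 3 knockout (Hic1 -/-), 3 heterozygous (Hic1 +/-) and 3 wild type (Hic1 +/+) libraries were made. In the conditional series, 7 knockout libraries carried PxCre and Hic1 f/f, 5 heterozygous libraries carried PxCre and Hic1 f/+, and 5 control libraries carried Hic1 f/+ without Cre. The labels call the last group wild type, and it is named control here because it holds a floxed allele. The Cre is driven by Prrx1, which is active in limb mesenchyme, so epidermis, blood, endothelium and the muscle lineage are not its main targets. Cre was present in the conditional knockouts and heterozygotes and absent from the controls, so an effect of Cre and an effect of Hic1 loss cannot be told apart against the controls. The labels do not say whether a library came from 1 embryo or from several.

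p53 is held low in unstressed cells by MDM2, a ubiquitin ligase that marks it for destruction. After DNA damage or other stress p53 protein accumulates and switches on genes for cell cycle arrest, cell death and metabolic adjustment, and also Mdm2 itself, which closes a feedback loop. Much of this control acts on the protein, so Trp53 mRNA is not a measure of p53 activity, and the targets are read as its output. Hic1 is itself a p53 target gene, and HIC1 protein is known to repress Sirt1, the gene of a deacetylase that acts on p53. The comparisons therefore ask whether Trp53 and its targets stood at other levels when Hic1 was lost.

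Levels are given in FPKM, a fragment count scaled by transcript length and library depth that the authors deposited. The depth itself is unknown. The FPKM of a library summed to 410482 or more and to at most 490248 among the 9 conventional libraries, and to between 436559 and 497121 among the 17 conditional ones. Hic1 followed the labels, at 1.70 ± 0.75 FPKM in conventional knockouts, 33.5 ± 3.42 in heterozygotes and 56.5 ± 7.56 in wild types (SD, n = 3 each), and at 4.82 ± 1.13 in conditional knockouts (SD, n = 7), 31.9 ± 2.52 in heterozygotes and 60.6 ± 5.52 in controls (SD, n = 5 each). The 6 limb mesenchyme markers Prrx1, Prrx2, Tbx5, Twist1, Pdgfra and Msx1 summed to between 540 and 806 FPKM over all 26 libraries. Conventional knockout replicate 1 stood apart, with a median correlation of 0.869 with the other 8 libraries of its table, where the others had 0.970 to 0.982. The main results of the conventional knockouts are given with and without it. The column headers carry 2-letter codes whose meaning is not stated (CH and CL in the conventional table, NZ, OA, OB and OC in the conditional table). Because tissue was sequenced in bulk, fewer cells expressing a gene and less of its RNA per cell cannot be told apart.

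The 10 genes spanned levels from below 1 FPKM to 92.7 FPKM in the conditional libraries. Trp53 and Bax, the pore-forming death effector, were the most abundant, with medians of 76.4 and 73.0 FPKM over the 17 conditional libraries, higher than 92.3% and 91.9% of the genes tested in the controls. Trp53 lies on chromosome 11 (chr11:69580359-69591873, plus strand, mm10), 5.57 Mb from Hic1. The 2 ranges, 68.1 to 92.7 FPKM for Trp53 and 63.2 to 88.9 FPKM for Bax, overlapped. A middle group followed: Cdkn1a at a median of 25.7 FPKM (16.8 to 43.5), Phlda3 at 21.1 FPKM (16.1 to 23.6), Ccng1 at 20.3 FPKM (15.6 to 24.1), Mdm2 at 18.2 FPKM (16.3 to 22.5) and Trp53inp1 at 17.5 FPKM (14.8 to 20.5), all with overlapping ranges. Sesn2 at 4.25 FPKM (2.85 to 4.89) and Bbc3 at 3.45 FPKM (2.71 to 3.92) lay below these and overlapped each other. Eda2r, a receptor of the tumour necrosis factor receptor family, was lowest at 0.733 FPKM (0.412 to 1.07). Its mean was under the 1 FPKM that a gene needed to enter the tests in either table, so 9 of the 10 genes were tested. The conventional medians were 75.5 FPKM for Trp53 and 74.4 FPKM for Bax, and 0.439 FPKM for Eda2r, so the ends of this order were the same there.

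Some of these genes carry sequences that match the p53 response element next to their start sites, and the stretches are printed because the data below set the levels of their genes beside that of Trp53. Promoter windows of 300 bases, from 250 before to 50 after each transcription start, were available from RefSeq (GRCm38.p6, the build also called mm10) for 9 of the 10 genes and for 32851 starts in all, without one for Trp53inp1. The consensus p53 motif of 10 bases, which reads the same on both strands, was searched with no mismatch. It was found in 5 of the 12 windows of these genes, which belong to 5 of the 9 genes, and in 8.36% of all windows. A full element, made of 2 such motifs with at most 13 bases between them, was found in a window of Cdkn1a and in 0.0731% of all windows (24 windows). Capitals mark the exact motifs and, in Ccng1 alone, also the adjoining 10 bases with 1 mismatch, and each line reads 5′ to 3′ on the strand of the gene.
Cdkn1a, chr17:29090896-29090947, plus strand: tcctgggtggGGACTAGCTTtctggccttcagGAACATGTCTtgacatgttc
Ccng1, chr11:40755452-40755491, minus strand: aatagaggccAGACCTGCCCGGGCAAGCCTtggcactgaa
Trp53, chr11:69580274-69580303, plus strand: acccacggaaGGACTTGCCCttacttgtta
Mdm2, chr10:117710925-117710954, minus strand: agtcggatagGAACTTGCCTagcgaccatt
Bax, chr7:45467080-45467109, minus strand: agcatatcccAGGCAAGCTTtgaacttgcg
In Cdkn1a the 2 motifs are 12 bases apart and lie 73 to 42 bases before the upstream start. The window at the downstream start of Cdkn1a held no match. The 10 bases that end the Cdkn1a line also hold 1 mismatch to the consensus and are left in lower case. In Ccng1 the exact motif is the second of the 2 adjoining runs, and the first holds the mismatch. The 4 genes with a window and no match were Sesn2, Phlda3, Bbc3 and Eda2r. A match of letters is a description of the sequence and not evidence that p53 binds there, and the intronic element known for Mdm2 lies outside these windows.

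In the conditional knockouts, levels of Trp53 and its targets lay close to those of the controls. None of the 9 tested genes was called by limma at an adjusted p under 0.05 (Benjamini-Hochberg over all genes of the table), where 34 of 12918 tested genes (0.263%) were called. Before adjustment 0 of the 9 genes had a p under 0.05, where 802 genes (6.21%) of the table passed. Fold changes here and below are on the log2(FPKM + 1) scale. They ran from -0.13 for Ccng1 to 0.14 for Cdkn1a, with a median of 0.04 against 0.01 for all tested genes.

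Trp53 was measured at 74.0, 68.1, 75.3, 91.5, 75.2, 81.5 and 81.5 FPKM in conditional knockouts, against 72.3, 71.5, 85.3, 78.0 and 73.6 FPKM in controls. The groups overlapped throughout, and the log2 fold change was 0.03 (95% interval -0.12 to 0.19), which on the FPKM + 1 scale allows a ratio between 0.923 and 1.14. Mdm2, the main inhibitor and a target of p53, was at 18.5, 17.4, 17.2, 17.7, 18.2, 19.7 and 18.9 FPKM in knockouts, against 17.4, 16.7, 19.8, 17.5 and 19.2 FPKM in controls. Its log2 fold change was 0.01 (-0.14 to 0.16), the smallest in size among the 9 genes.

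Cdkn1a, which encodes the cyclin-dependent kinase inhibitor p21 that carries out arrest in G1, had the widest spread. It was at 26.1, 43.5, 25.7, 16.8, 39.1, 30.4 and 31.2 FPKM in knockouts, against 25.0, 25.3, 25.7, 29.6 and 26.5 FPKM in controls. Of the 7 knockouts, 4 lay above every control and 1 lay below every control, and the group mean was 30.4 ± 8.90 FPKM in knockouts (SD, n = 7) and 26.4 ± 1.88 FPKM in controls (SD, n = 5). The log2 fold change of 0.14 had an interval from -0.21 to 0.50 (limma, adjusted p = 1). Ccng1, cyclin G1, a p53 target that feeds back on MDM2, was at 21.4, 21.1, 20.1, 15.9, 19.1, 20.3 and 18.0 FPKM in knockouts, against 24.1, 22.9, 16.2, 23.3 and 20.6 FPKM in controls. Its log2 fold change of -0.13 (-0.35 to 0.10) was the one negative value among the 9, and knockouts and controls overlapped.

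The death genes were level as well. Bax ran from 63.2 to 88.9 FPKM in knockouts (median 75.1, n = 7), against 78.3, 71.3, 74.6, 73.0 and 65.4 FPKM in controls, with a log2 fold change of 0.03 (-0.11 to 0.17). Bbc3, which encodes the BH3-only protein PUMA, ran from 3.06 to 3.86 FPKM in knockouts (median 3.53), against 2.71 to 3.70 FPKM in controls (median 3.40), with a log2 fold change of 0.09 (-0.07 to 0.24). Eda2r averaged 0.805 ± 0.183 FPKM in knockouts (SD, n = 7) and 0.736 ± 0.154 FPKM in controls (SD, n = 5), and the 2 ranges overlapped. When the filter on low values was dropped its log2 fold change was 0.05 (-0.13 to 0.24).

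Sesn2, which encodes a stress-induced inhibitor of the growth kinase complex mTORC1, averaged 4.21 ± 0.506 FPKM in knockouts (SD, n = 7) and 3.92 ± 0.708 FPKM in controls (SD, n = 5), a log2 fold change of 0.09 (-0.11 to 0.28). Trp53inp1, whose product takes part in autophagy and in the p53 death response, averaged 18.1 ± 1.35 FPKM in knockouts and 17.6 ± 1.73 FPKM in controls, a log2 fold change of 0.04 (-0.09 to 0.16). Phlda3, an inhibitor of the survival kinase AKT, averaged 21.4 ± 2.37 FPKM in knockouts and 20.4 ± 2.39 FPKM in controls, a log2 fold change of 0.07 (-0.11 to 0.25). For 8 of the 9 genes, all but Cdkn1a, the interval stayed between ratios of 0.783 and 1.22 on the FPKM + 1 scale. With a batch term for the column letters the sign turned for Ccng1 (0.03), Mdm2 (-0.03), Bax (-0.03) and Trp53 (-0.05), the value moved to 0.31 for Cdkn1a and to 0.19 for Phlda3, and again none was called. Within the NZ columns Cdkn1a averaged 34.8 FPKM in 2 knockouts and 25.1 FPKM in 2 controls, and within the OB columns it averaged 28.6 FPKM in 5 knockouts and was 25.7 FPKM in the 1 control. Ccng1 averaged 21.3 FPKM in knockouts and 23.5 FPKM in controls within NZ, and 18.7 FPKM in knockouts and 16.2 FPKM in the control within OB, so its direction differed between the letters.

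**Figure D1:**
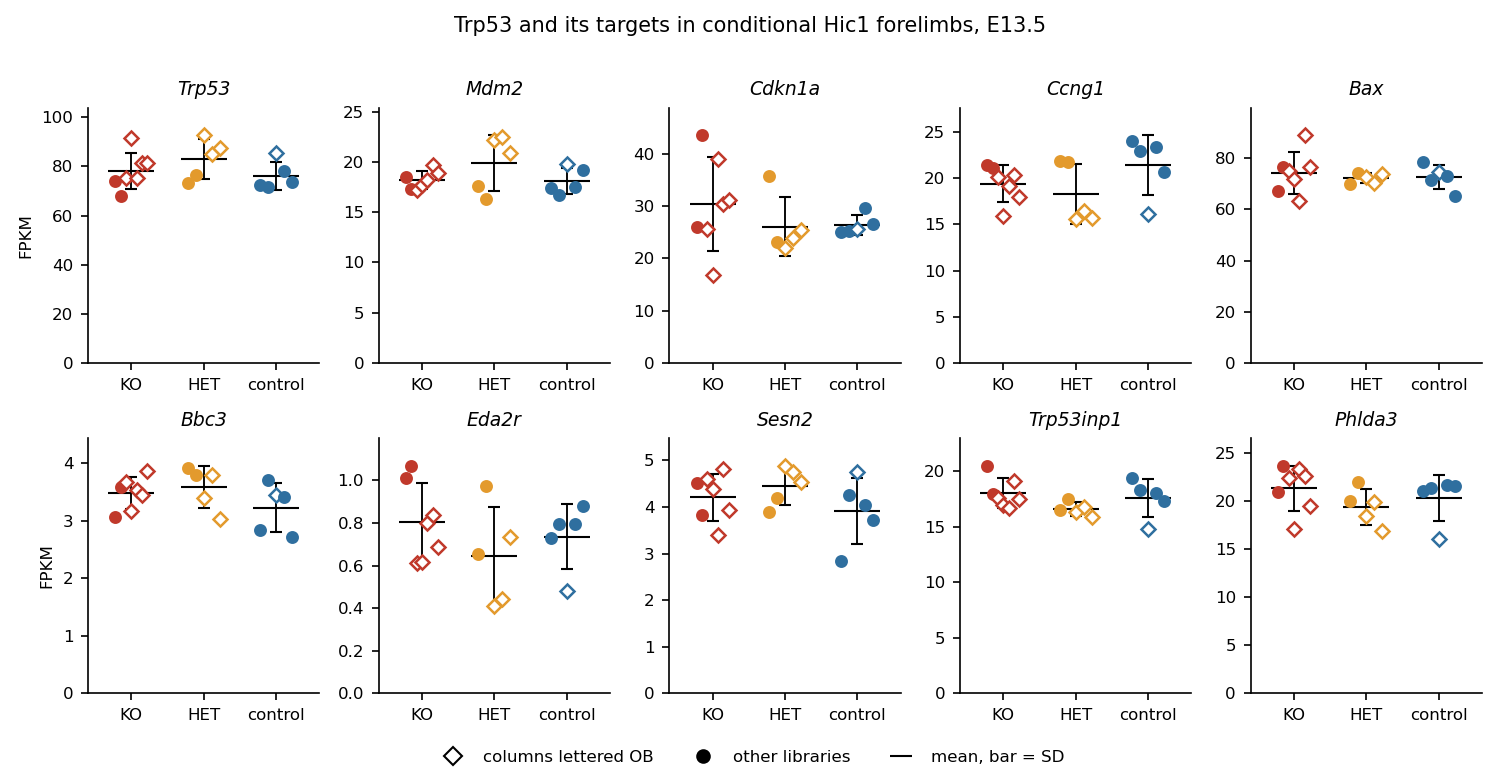
FPKM of Trp53 and its 9 targets in each conditional library, with knockouts (KO), heterozygotes (HET) and controls from left to right, the mean as a line and the SD as a bar. Open diamonds are columns lettered OB. The 3 groups overlap in every panel, Cdkn1a spreads from 16.8 to 43.5 FPKM among the knockouts, and the lowest Ccng1 values in each group are OB columns.

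The level of Cdkn1a moved with that of skeletal muscle genes across the conditional libraries, and the part of muscle content in its spread was not tested beyond the covariate fit given with these values. The 6 skeletal muscle markers Myod1, Myog, Actc1, Myh3, Ckm and Tnnt1 summed to between 413 and 1158 FPKM in the 7 knockouts, between 583 and 1082 FPKM in the 5 heterozygotes and between 779 and 992 FPKM in the 5 controls. The library with the lowest sum, knockout replicate 4, had the lowest Cdkn1a (16.8 FPKM), and the 3 libraries with the highest sums, knockout replicates 5 and 2 and heterozygote replicate 1, had the 3 highest Cdkn1a values (39.1, 43.5 and 35.8 FPKM). Over the 17 libraries Pearson's r of the log2 values was 0.93 and Spearman's rho was 0.88, each with a permutation p of 1e-05, the smallest that 100000 permutations can give (adjusted p = 0.0001 for both over the 10 genes tried). Pearson's r was 0.90 without the 2 libraries farthest from the median of the muscle sum, 0.96 within the 9 OB columns and 0.90 within the other 8. Among the other 9 genes, Trp53 had an r of -0.68 with the muscle sum (permutation p = 0.00201, adjusted p = 0.0101) that fell to -0.42 without those 2 libraries, and Phlda3 had an r of 0.58 (permutation p = 0.0144, adjusted p = 0.0481) that fell to 0.39. By Spearman's rho neither passed (-0.54 and 0.56, permutation test, adjusted p = 0.0711 and 0.0701), and outside the OB columns their r was -0.35 and 0.23.

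The 5 genes most like Cdkn1a across the 17 conditional libraries, ranked by Pearson's r of log2(FPKM + 1) among the other 12917 tested genes, were Mybpc1 (r = 0.94), Myo18b (0.94), Unc45b (0.94), Srl (0.94) and Lmod3 (0.94). They encode a myosin-binding protein, an unconventional myosin, a myosin chaperone, a sarcoplasmic reticulum protein and a leiomodin of the thin filament. These values are descriptions over libraries that also differ in depth and muscle content. Over the 9 conventional libraries the same genes had r values with Cdkn1a of -0.74, 0.87, 0.83, 0.48 and -0.63, in the same order, and without knockout replicate 1 these were 0.14, 0.70, 0.60, 0.64 and -0.04. The muscle sum itself had an r of 0.77 with Cdkn1a over the 9 conventional libraries and of 0.68 without that replicate. With the log2 muscle sum as a covariate, an alternative chosen after the data were seen, Cdkn1a had a log2 fold change of 0.18 in knockouts against controls with an interval from 0.05 to 0.30 (limma, unadjusted p = 0.00816, adjusted p = 0.350), so it was not called.

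Trp53 and its targets did not all move in the same direction across libraries, and some of the targets moved together. The 5 libraries with the highest Trp53, at 85.3 to 92.7 FPKM where the other 12 had 68.1 to 81.5 FPKM, were the same 5 libraries that had the lowest Ccng1, at 15.6 to 16.5 FPKM where the other 12 had 18.0 to 24.1 FPKM. They were knockout replicate 4, heterozygote replicates 3, 4 and 5 and control replicate 3, and all carried the letters OB. Across the 17 libraries the r of Trp53 with Ccng1 was -0.87 and rho was -0.80 (permutation p = 2e-05 for r and adjusted p = 0.0009 over the 45 pairs of the 10 genes). It was -0.81 without the 2 libraries farthest from the median of Trp53 and -0.87 within the 9 OB columns, but 0.22 within the other 8 columns, so it was seen within OB and not within the rest. Whether the r values differ between the column sets was not tested. Trp53 also ran against Phlda3 by Pearson's r (-0.77, permutation p = 0.00037, adjusted p = 0.00833) but not past the threshold by rho (-0.61, permutation test, adjusted p = 0.0713). With Mdm2 it had an r of 0.68 (permutation p = 0.00263, adjusted p = 0.0169) and a rho of 0.66 (permutation test, adjusted p = 0.0462). Within the columns outside OB the r values for Phlda3 and Mdm2 were -0.38 and -0.01. Of the 45 pairs, 14 had an adjusted permutation p under 0.05 for Pearson's r and 6 of these also for Spearman's rho. A positive r was found in 8 of the 14. These were Trp53 with Mdm2 and with Sesn2 (r = 0.60), and every pair among Ccng1, Trp53inp1, Phlda3 and Eda2r. Within those targets r ran from 0.62 to 0.74 over the 17 libraries, and from -0.59 to 0.73 outside the OB columns.

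The genes most like Trp53 and most like Ccng1 were taken by the same ranking, a choice made after their values were seen. Those most like Trp53 were Mms22l (r = 0.97), Ctc1 (0.96), Pole (0.95), Gtf3c2 (0.95) and Cdca4 (0.94). Pole encodes the catalytic subunit of a replicative DNA polymerase, Mms22l a protein of replication fork repair and Ctc1 a protein of telomere replication. Over the 9 conventional libraries their r values with Trp53 were -0.72, 0.96, 0.67, 0.94 and 0.95, in that order, and without knockout replicate 1 they were 0.28, 0.75, 0.62, 0.85 and 0.86. Those most like Ccng1 were Oat (0.97), Kitl (0.95), Ogn (0.95), S100a11 (0.95) and Tmed3 (0.95), with Ogn, the matrix protein osteoglycin, running from 31.8 to 135 FPKM. Their conventional r values with Ccng1 were -0.43, 0.96, 0.93, -0.36 and -0.74, and without knockout replicate 1 they were -0.50, 0.98, 0.87, 0.06 and -0.31, so Oat and Tmed3 had the opposite sign in both. The points share library and depth. The 5 libraries with the highest Trp53 and lowest Ccng1 also had the highest limb mesenchyme sums and the lowest epidermis sums. The mesenchyme sums were 647 to 806 FPKM there and 540 to 646 FPKM in the other 12 libraries. The sums of the epidermis markers Krt5, Krt14, Krt15 and Cdh1 were 276 to 309 FPKM and 367 to 622 FPKM, in that order. Against the muscle sum the r was -0.68 for Trp53 and 0.50 for Ccng1. The part of tissue composition or stage in these likenesses was not tested.

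**Figure D2:**
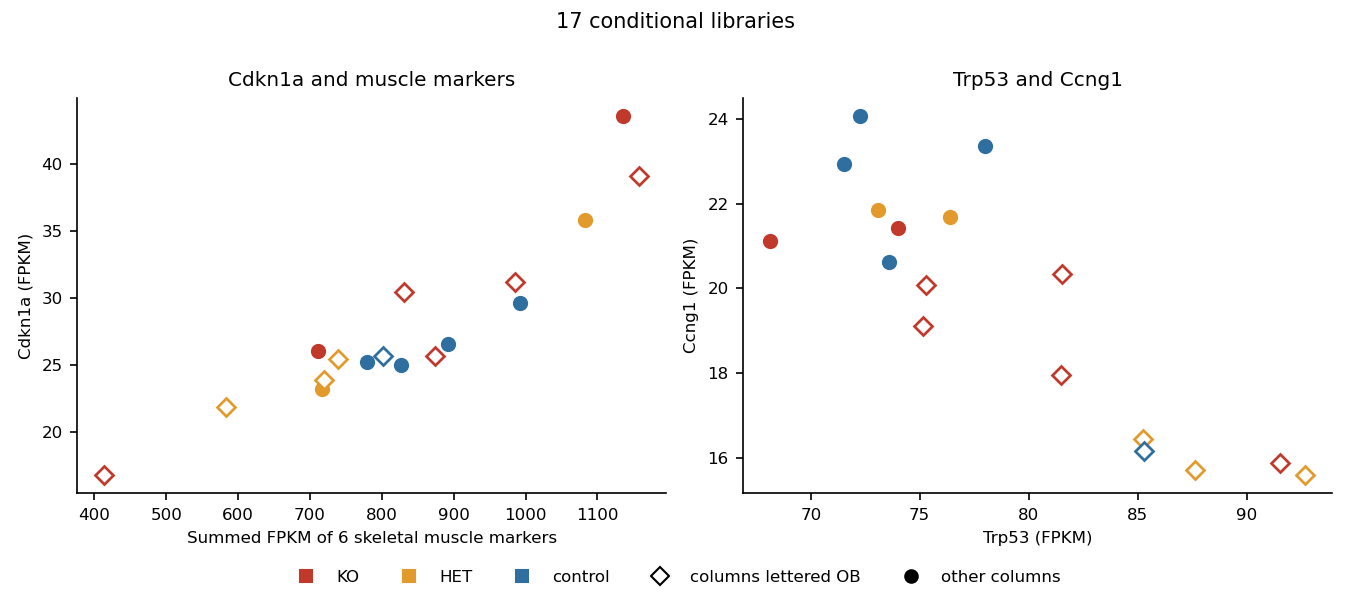
The 17 conditional libraries, each 1 point coloured by genotype, with Cdkn1a in FPKM against the summed FPKM of 6 skeletal muscle markers (left) and Ccng1 against Trp53, both in FPKM (right). Cdkn1a climbs with the muscle sum in all 3 genotypes, and the 5 OB columns above 85 FPKM of Trp53 lie below 17 FPKM of Ccng1; the axes do not start at 0.

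In the conditional heterozygotes none of the 9 genes was called against the controls by limma, where 1 of 12918 tested genes (0.00774%), Hic1, was called. At an unadjusted p under 0.05 the count was 0 of 9, where 725 genes (5.61%) passed. Ccng1 had the smallest p, at 21.8, 21.7, 15.6, 16.5 and 15.7 FPKM in heterozygotes against 24.1, 22.9, 16.2, 23.3 and 20.6 FPKM in controls, a log2 fold change of -0.22 (-0.46 to 0.02; limma, adjusted p = 0.747). Of the 5 heterozygotes 3 are OB columns and of the 5 controls 1 is. Within OB the heterozygotes averaged 15.9 FPKM of Ccng1 and the 1 control had 16.2 FPKM. Within NZ the 1 heterozygote had 21.8 FPKM and the 2 controls averaged 23.5 FPKM. Mdm2 was at 17.6, 16.3, 22.1, 22.5 and 20.9 FPKM in heterozygotes, against 17.4, 16.7, 19.8, 17.5 and 19.2 FPKM in controls, a log2 fold change of 0.12 (-0.04 to 0.28). Trp53 averaged 83.0 ± 8.10 FPKM in heterozygotes and 76.1 ± 5.69 FPKM in controls (SD, n = 5 each), a log2 fold change of 0.12 (-0.04 to 0.28). Between conditional knockouts and heterozygotes, both of which carry Cre, 10 tested genes (0.0774%) were called and 0 of the 9 genes. At an unadjusted p under 0.05 there were again 0 of 9, where 598 genes (4.63%) passed. The 9 log2 fold changes of knockouts against heterozygotes ran from -0.11 for Mdm2 to 0.18 for Cdkn1a, and the smallest unadjusted p was 0.0801, for Trp53inp1 (0.11).

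In the conventional knockouts the same genes were also not called, but the values of the 3 knockout libraries were far apart. Of 12717 tested genes, 3 (0.0236%) were called by limma, and 0 of the 9 genes were. At an unadjusted p under 0.05 the count was 0 of 9, where 898 genes (7.06%) passed. The log2 fold changes ran from -0.95 for Ccng1 to 0.34 for Sesn2, with a median of 0.08 against -0.02 for all tested genes.

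Trp53 was at 121, 85.0 and 76.9 FPKM in knockouts, against 79.0, 69.4 and 75.0 FPKM in wild types. The log2 fold change was 0.31 (-0.07 to 0.69; limma, adjusted p = 0.596), and without knockout replicate 1 it was 0.12 (-0.08 to 0.32). Mdm2 was at 12.5, 27.1 and 26.2 FPKM in knockouts, against 24.2, 27.2 and 25.9 FPKM in wild types. Replicate 1 alone lay below the wild types, and the log2 fold change of -0.29 (-0.89 to 0.30) became 0.05 (-0.16 to 0.26) without it.

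Cdkn1a was at 36.4, 24.2 and 19.3 FPKM in knockouts, against 25.2, 24.2 and 23.3 FPKM in wild types, with a log2 fold change of 0.08 (-0.38 to 0.54) and of -0.16 (-0.41 to 0.09) without replicate 1. The muscle sum was 909, 565 and 581 FPKM in the 3 knockouts and 723 to 815 FPKM in wild types, so replicate 1 was highest in both measures. Ccng1 was at 1.35, 9.81 and 13.7 FPKM in knockouts, against 8.79, 16.2 and 15.0 FPKM in wild types. Its log2 fold change was -0.95 (-2.38 to 0.48) with replicate 1 and -0.14 (-0.86 to 0.58) without it. Leaving out all 3 CH columns was an alternative chosen after the data were seen. There 2 knockouts at 9.81 and 13.7 FPKM stood against 2 wild types at 16.2 and 15.0 FPKM. The log2 fold change of Ccng1 was then -0.39 (-0.77 to -0.02, limma, unadjusted p = 0.0432, adjusted p = 0.318). In that fit 2 of the 9 genes, Ccng1 and Sesn2, and 15.1% of all tested genes were under 0.05 before adjustment.

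Bax was at 119, 76.9 and 71.4 FPKM in knockouts, against 77.3, 72.8 and 67.0 FPKM in wild types. Bbc3 was at 4.87, 3.02 and 2.42 FPKM in knockouts, against 3.14, 2.58 and 2.42 FPKM in wild types. The log2 fold change of Bax was 0.26 (-0.16 to 0.68), and 0.04 (-0.16 to 0.24) without replicate 1. That of Bbc3 was 0.22 (-0.23 to 0.67), and 0.00 (-0.29 to 0.29) without it. Eda2r was at 0.0250, 0.461 and 0.439 FPKM in knockouts, against 0.354, 0.621 and 0.476 FPKM in wild types.

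Sesn2 was at 6.87, 4.35 and 4.22 FPKM in knockouts, against 4.42, 3.62 and 3.34 FPKM in wild types, with a log2 fold change of 0.34 (-0.13 to 0.80) and of 0.15 (-0.23 to 0.52) without replicate 1. Trp53inp1 was at 1.04, 8.77 and 12.2 FPKM in knockouts, against 7.68, 12.9 and 12.0 FPKM in wild types, with a log2 fold change of -0.86 (-2.27 to 0.55) and of -0.03 (-0.61 to 0.54) without replicate 1. Phlda3 was at 32.0, 15.8 and 14.6 FPKM in knockouts, against 21.1, 18.1 and 18.0 FPKM in wild types. Knockout replicates 2 and 3 both lay below the 3 wild types and replicate 1 lay above them, and the log2 fold change of Phlda3 was 0.04 (-0.58 to 0.66) with replicate 1 and, without it, -0.31 (-0.61 to 0.00; limma, unadjusted p = 0.0504, adjusted p = 0.467).

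**Figure D3:**
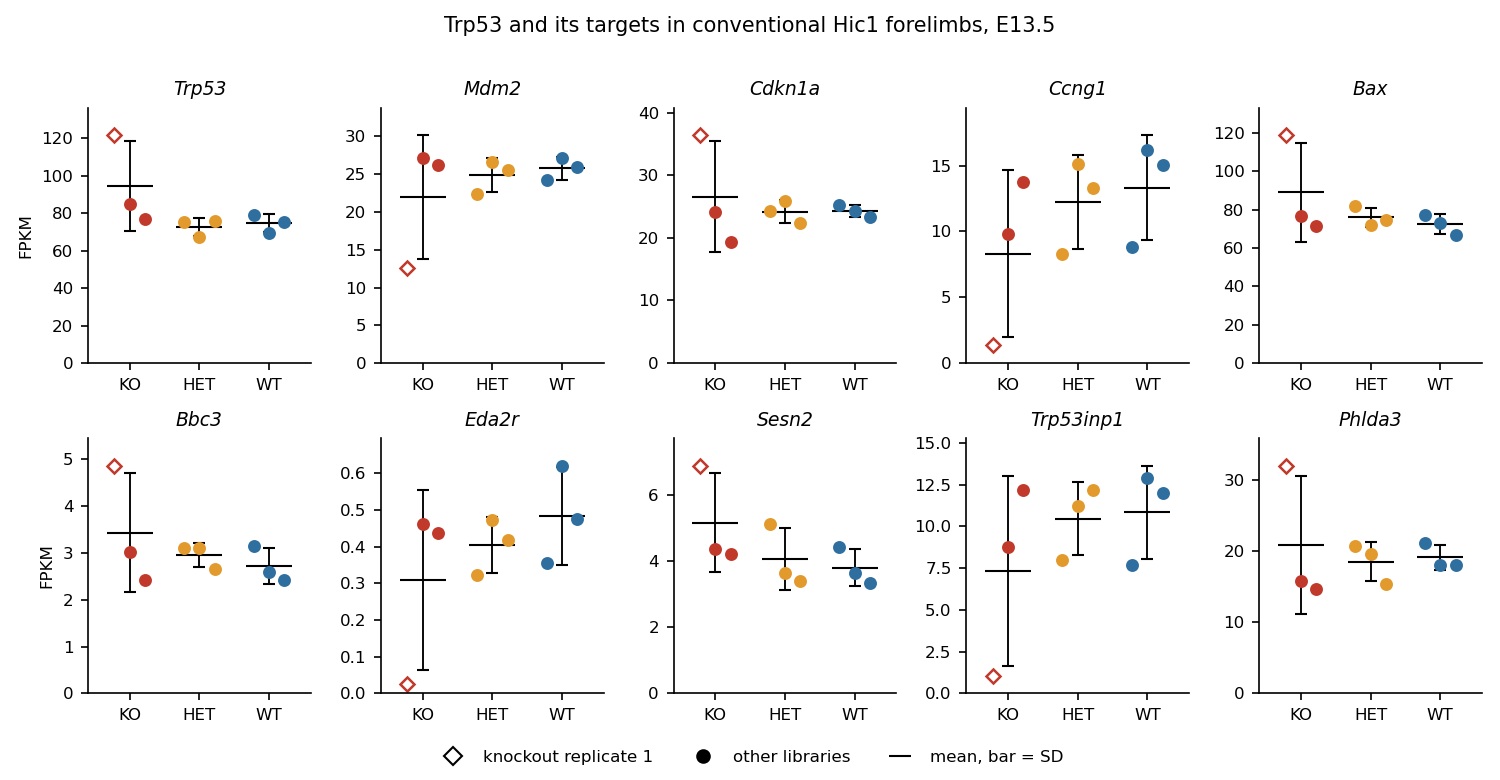
FPKM of Trp53 and its 9 targets in each conventional library, with knockouts (KO), heterozygotes (HET) and wild types (WT) from left to right, the mean as a line and the SD as a bar. The open diamond is knockout replicate 1, the highest of the 9 libraries for 6 genes and the lowest for 4.

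Knockout replicate 1 was the highest of the 9 conventional libraries for Trp53, Cdkn1a, Bax, Sesn2, Phlda3 and Bbc3, and the lowest for Mdm2, Trp53inp1, Ccng1 and Eda2r. Against the mean of the other 2 knockouts its level was 1.50 times for Trp53 and 2.10 times for Phlda3, the ends of the higher group, and 0.469 times for Mdm2 and 0.0556 times for Eda2r, the ends of the lower group. Being extreme was common there, since replicate 1 was the highest library for 42.8% and the lowest for 39.6% of the 12717 tested genes. The split followed base composition: the longest annotated transcripts of the 6 higher genes hold 54.0% to 65.2% G + C, and those of the 4 lower genes 38.8% to 46.2%. Across 11921 tested genes with a transcript sequence, Spearman's rho between G + C content and the log2 ratio of replicate 1 to the mean of the wild types was 0.83, a value over genes, which are not independent replicates. The rho was 0.59 for both of the other CH columns, heterozygote and wild type replicate 1, and between -0.50 and 0.32 for the CL columns. The mean of the wild types holds the wild type columns themselves, CH and CL. A G + C trend in any of them therefore enters each of these values. Over the 2981 genes with the lowest G + C the median log2 ratio was -1.26, and over the 2980 genes with the highest it was 0.58. The ratio also moved with transcript length, with a rho of -0.37. Its median was 0.36 over the 2983 shortest and -0.53 over the 2980 longest transcripts. The longest transcripts of the 4 lower genes have 3145 to 5404 bases, and those of the 6 higher genes 1100 to 3475. The parts of G + C content and of length were not tested apart.

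After a G + C correction of each library, an alternative chosen after the data were seen, the log2 fold changes in conventional knockouts were smaller in size for all of the 9 genes except Phlda3. Ccng1 had -0.43 (-0.97 to 0.11), Trp53inp1 had -0.24 (-0.61 to 0.13) and Mdm2 had -0.10 (-0.38 to 0.19). Cdkn1a turned to -0.05 and Phlda3 to -0.16. Trp53 had 0.19 (0.02 to 0.36; limma, unadjusted p = 0.0324, adjusted p = 0.300), the 1 of the 9 genes under 0.05 before adjustment in a fit where 14.3% of 11921 genes were. None of the 9 was called, where 35 genes of the table were.

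**Figure D4:**
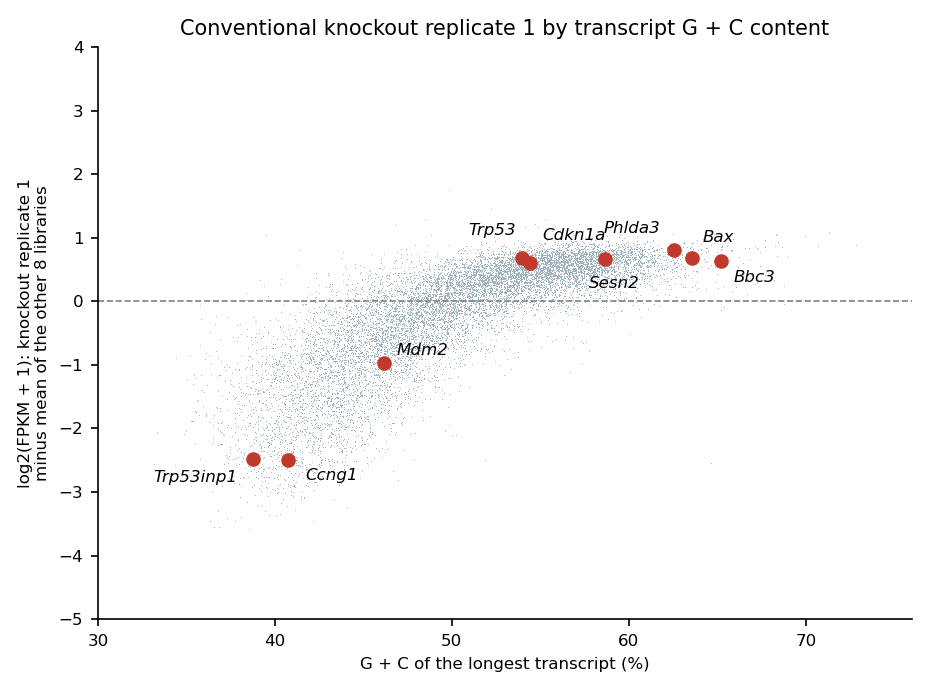
Log2(FPKM + 1) of conventional knockout replicate 1 minus the mean of the other 8 libraries (vertical axis) against the G + C content of the longest transcript in percent (horizontal axis), for 11921 tested genes (small points) and the 9 tested p53 genes (red). The 6 red genes at 54.0% and above lie above 0, and Mdm2, Ccng1 and Trp53inp1 lie below it.

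The same replicate numbers mark the same column letters in the conventional groups. Same-numbered libraries deviated together, but CL libraries with unlike numbers did so too (r of 0.292 to 0.508). These values cannot decide whether numbers pair libraries within CL, because the deviations were taken from group means that hold the CH column. A fit with the replicate number as a block was also made. It gave the same fold changes and no call among the 9 genes. In this blocked fit Sesn2 (0.34, 0.08 to 0.60; limma, unadjusted p = 0.0183, adjusted p = 0.292) and Ccng1 (-0.95, -1.86 to -0.04; limma, unadjusted p = 0.0436, adjusted p = 0.299) were under 0.05 before adjustment, as were 2111 of all tested genes (16.6%). The number of all tested genes called was 1 with the block and 3 without it.

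**Figure D5:**
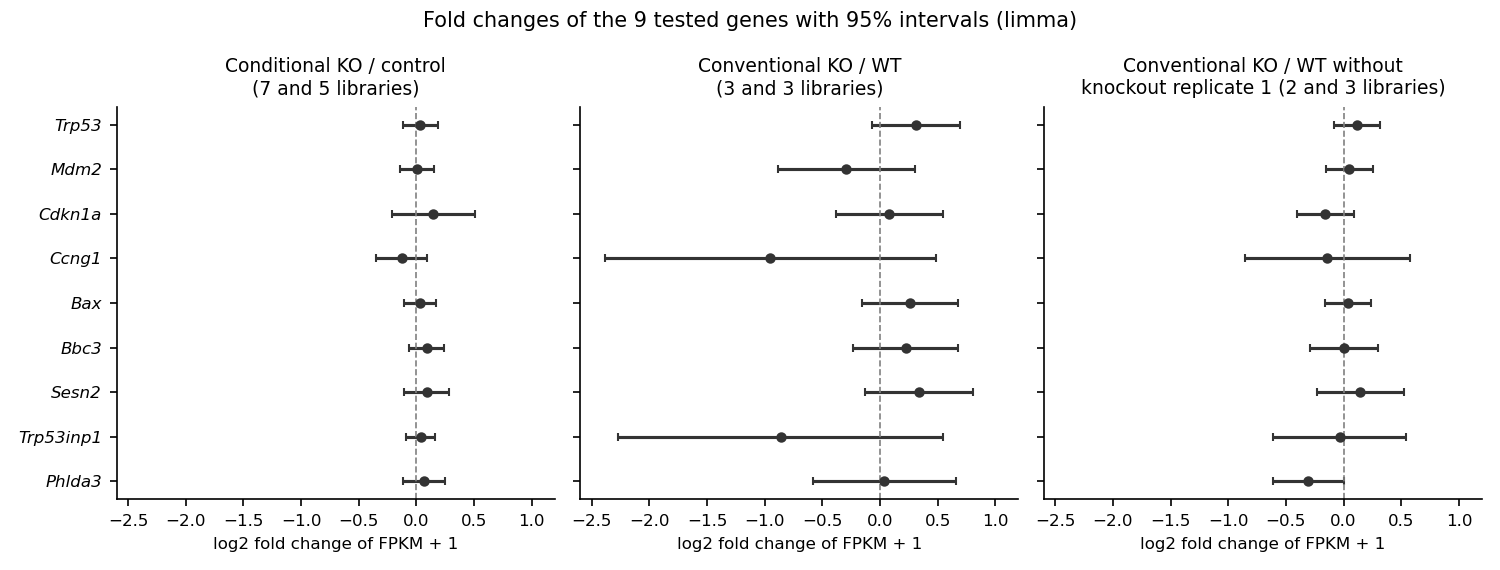
Log2 fold changes of FPKM + 1 with 95% intervals from limma for the 9 tested genes, in conditional knockouts over controls (left), conventional knockouts over wild types (middle) and the same without conventional knockout replicate 1 (right). All intervals include 0, and the widest, for Ccng1, runs from -2.38 to 0.48 in the middle panel.

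In the conventional heterozygotes, 0 of the 9 genes and 0 of 12717 tested genes (0%) were called against wild type by limma. At an unadjusted p under 0.05 there were 0 of 9, where 47 genes (0.370%) passed, and with array weights 1 gene of the table was called. Trp53 was at 75.5, 67.2 and 75.5 FPKM in heterozygotes, against 79.0, 69.4 and 75.0 FPKM in wild types, and the 9 log2 fold changes ran from -0.11 to 0.09. Between conventional knockouts and heterozygotes 1 tested gene (0.00786%), Hic1, was called and 0 of the 9 were, and at an unadjusted p under 0.05 there were 0 of 9, where 583 genes (4.58%) passed. Trp53 had the smallest p there, with a log2 fold change of 0.35 (-0.03 to 0.72) that was 0.15 without knockout replicate 1.

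Sirt1, the HIC1 target whose product deacetylates p53, and Mdm4 were not called in any of the 6 comparisons. Sirt1 averaged 14.9 ± 0.710 FPKM in conditional knockouts (SD, n = 7) and 14.5 ± 1.09 FPKM in controls (SD, n = 5), a log2 fold change of 0.04 (-0.08 to 0.15). In conventional libraries it was at 1.41, 12.6 and 15.7 FPKM in knockouts, against 9.42, 15.8 and 14.4 FPKM in wild types, a log2 fold change of -0.77 (-2.26 to 0.73) that turned to 0.12 (-0.47 to 0.70) without replicate 1. Mdm4, which encodes an MDM2 relative that restrains p53, averaged 33.1 ± 1.46 FPKM in conditional knockouts and 32.4 ± 1.33 FPKM in controls, a log2 fold change of 0.03 (-0.08 to 0.14). In conventional libraries it was at 9.74, 36.4 and 37.3 FPKM in knockouts, against 25.9, 37.9 and 38.9 FPKM in wild types, a log2 fold change of -0.48 (-1.52 to 0.56) that turned to 0.12 (-0.30 to 0.55) without replicate 1.

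The wider p53 pathway was read from 7 lists of 86 genes: regulators of p53, targets in arrest and repair, in cell death and in metabolism, other targets, genes lowered through p21, and relatives of the 10 genes. Of these, 80 were tested in the conditional table and 79 in the conventional table, and 0 were called by limma in any of the 6 comparisons. At an unadjusted p under 0.05 there were 5 of 80 (6.25%) in conditional knockouts against controls, where 6.21% of all tested genes passed, and 2 of 79 (2.53%) in conventional knockouts against wild types, where 7.06% passed. The median log2 fold change of the listed genes was 0.04 in conditional knockouts, where that of all tested genes was 0.01, and 0.02 in conventional knockouts, where that of all tested genes was -0.02.

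Among conditional knockouts the smallest p in these lists belonged to Bcl2l11, which encodes the BH3-only protein BIM. It was at 12.4 ± 0.763 FPKM in knockouts (SD, n = 7), between 11.8 and 13.7. In controls it was at 10.4 ± 0.826 FPKM (SD, n = 5), between 9.26 and 11.3. Its log2 fold change was 0.23 with a standard error of 0.06 (limma, unadjusted p = 0.00176, adjusted p = 0.218). The death receptor gene Fas averaged 1.84 ± 0.319 FPKM in knockouts and 1.38 ± 0.360 FPKM in controls (log2 fold change 0.26, limma, adjusted p = 0.631). The kinase gene Plk2, a p53 target in arrest, averaged 59.6 ± 5.49 FPKM in knockouts and 53.8 ± 2.25 FPKM in controls (0.14, limma, adjusted p = 0.630), and the relatives Ccng2 (0.14) and Sesn3 (0.10) were the other 2 under 0.05 before adjustment. The 12 genes lowered through p21, such as Cdc25c (0.20), Aurkb (0.12) and E2f1 (0.07), had 12 positive and 0 negative log2 fold changes in conditional knockouts with a median of 0.07, where 53.7% of all tested genes were positive and the median was 0.01. In conditional heterozygotes against controls they also had 12 positive and 0 negative values, with a larger median of 0.14. Of all tested genes 50.5% were positive in that comparison, with a median of 0.001. There 3 of the 12 were under 0.05 before adjustment, where 5.61% of all tested genes were. In conditional knockouts against heterozygotes 2 were positive and 10 negative, with a median of -0.06, where 51.1% of all tested genes were positive with a median of 0.002. The 12 are cell cycle genes measured in the same libraries and are not independent of each other, and none of them was called.

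Among conventional knockouts the smallest p belonged to Perp, a p53 target that encodes a membrane protein of epithelial junctions. It was at 25.5 ± 2.53 FPKM in knockouts, between 22.6 and 27.5. In wild types it was at 39.8 ± 4.10 FPKM (SD, n = 3 each), between 35.4 and 43.4. Its log2 fold change was -0.62 (limma, unadjusted p = 0.00445, adjusted p = 0.449). The 4 epidermis markers Krt5, Krt14, Krt15 and Cdh1 summed to between 244 and 426 FPKM in these knockouts and between 300 and 368 FPKM in wild types, and their part in the Perp value was not tested. In conditional libraries Perp ran from 33.9 to 79.8 FPKM in knockouts and from 34.4 to 89.0 FPKM in controls. Pidd1, which encodes a death-domain protein, averaged 7.86 ± 1.17 FPKM in conventional knockouts and 5.86 ± 0.176 FPKM in wild types (log2 fold change 0.36, limma, unadjusted p = 0.0175, adjusted p = 0.596). With array weights, which gave knockout replicate 1 a weight of 0.0468, limma called Pidd1 (0.32, adjusted p = 0.0304) and E2f1 (0.25, adjusted p = 0.0470) in this comparison, as it did 980 of all tested genes. Pidd1 averaged 5.17 ± 0.601 FPKM in conditional knockouts and 4.66 ± 0.682 FPKM in controls (0.13, limma, adjusted p = 0.954).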

How the data were processed

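FPKM were deposited by the authors in 2 tables, 1 per strategy. The tools named in the submitters' processing notes are bcl2fastq, TopHat2, Bowtie2 and Cufflinks, and the build is mm10. Depth is unknown, so no counting error is given. Each table was tested alone with limma 3.58.1 in R 4.3.3 on log2(FPKM + 1), keeping genes that averaged 1 FPKM or more. The 3 genotype groups of a table shared 1 estimate of the spread, with a mean trend and Benjamini-Hochberg adjustment, and a call needed an adjusted p under 0.05. The fit was tested on simulated data with independent noise for each gene, in which 200 genes were changed by 1 on the log2 scale. In conventional knockouts against wild types 129 of the 200 (64.5%) were recovered, and in conditional knockouts against controls 190 (95%). In each, 6 unchanged genes were called. Deviations shared between genes, as in the CH columns, were not simulated. A p-value reflects only how these libraries vary, which may be technical. Alternatives covered the pseudocount, filter, groups fitted, replicate block, centring, column letters, array weights and each library left out. Leaving out the CH columns, a G + C correction and a muscle covariate were added after the data were seen. In each conventional group replicate 1 is the CH column. The deviations of same-numbered conventional libraries from their group means correlated at 0.244 to 0.717. Those of CL libraries with unlike numbers correlated at 0.292 to 0.508, and those of CH with CL libraries at -0.699 to -0.303. Each deviation was taken from a group mean that holds the CH column. A deviation of that column therefore moves both CL deviations of its group the other way. For this reason these values cannot decide whether numbers pair libraries within CL. Genes named beyond the 10 are Hic1, Sirt1 and Mdm4, up to 4 per pathway list with the smallest unadjusted p in either knockout comparison, and the 5 most like Cdkn1a. The 5 most like Trp53 and the 5 most like Ccng1 were added after values were seen. The 10 genes and all lists were chosen with earlier results of these data known. Trp53 has a processed pseudogene, and Cdkn1a, Bax and Sesn2 overlap other annotated genes. How shared reads were assigned is not given in the sources used here. Promoter stretches are from RefSeq (GRCm38.p6), and gene positions and transcripts from GENCODE M21.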

Additional observations from a re-analysis of the deposited data

Results flagged for a closer look

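Of 39 sets of values tested, 13 genes in each of the 3 conditional groups, 2 held a library farther from the others than Dixon's 95% limit for a single outlying value, a limit that chance passes in about 1 set in 20. Cdkn1a was at 35.8 FPKM in conditional heterozygote replicate 1, where the other 4 heterozygotes had 21.9 to 25.5 FPKM. The muscle sum of that library was 1082 FPKM and that of the other heterozygotes 583 to 739 FPKM. Phlda3 was at 16.1 FPKM in conditional control replicate 3, where the other 4 controls had 21.1 to 21.7 FPKM. That library is the 1 control with OB letters, and it also had the lowest Ccng1 (16.2 FPKM), Trp53inp1 (14.8 FPKM) and Eda2r (0.479 FPKM) of the controls and the highest Trp53 (85.3 FPKM). The part of the letters or of muscle content in these values was not tested.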

How the results depend on the processing

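None of the 9 tested genes passed an adjusted p under 0.05 by limma under any alternative run, and the smallest was 0.0947. Their counts under 0.05 before adjustment did move. With array weights 5 of 9 passed in conditional knockouts against heterozygotes, where 2507 of 12918 tested genes did. In conditional heterozygotes against controls 3 of 9 did, where 3381 did. With the column letters 3 of 9 did in conventional knockouts against wild types, where 2747 of 12717 did. The counts of all tested genes called moved as follows. In conventional knockouts against wild types, 3 genes were called, against 1 without the filter, with the 2 groups alone or with the replicate block, 8 with the column letters, 35 with the G + C correction, 37 with that correction and the replicate block, 980 with array weights, and 1 to 5 with a library left out. In conventional heterozygotes against wild types 0 were called, against 2 with the 2 groups alone, 1 with array weights, without the CH columns or with the G + C correction, and 0 to 2 with a library left out. Between conventional knockouts and heterozygotes 1 was called, against 36 with array weights and 1 to 2 with a library left out. In conditional knockouts against controls 34 were called, against 17 at a mean of at least 5 FPKM, 122 with array weights, 53 with the muscle covariate and 17 to 46 with a library left out. In conditional heterozygotes against controls 1 was called, against 0 with a pseudocount of 0.1, no filter, the replicate block, the column letters or the G + C correction with the block, and 0 to 1 with a library left out. Between conditional knockouts and heterozygotes 10 were called, against 5 at a mean of at least 5 FPKM, 29 with array weights and 5 to 16 with a library left out. The median log2 fold change of the 9 genes, with a library left out, ran from 0.00017 to 0.28 in conventional knockouts against wild types and from -0.029 to 0.29 against heterozygotes, with the highest of each without knockout replicate 3. The cause of these moves was not tested. Same-numbered conditional libraries had an r of -0.308 to 0.025 between knockouts and controls. The r was -0.144 to 0.444 between heterozygotes and controls, and 0.0183 to 0.366 between knockouts and heterozygotes. Conditional libraries with unlike numbers had r values from -0.433 to 0.401. The replicate block gave 26 calls in conditional knockouts against controls. The intervals of the 9 genes in conventional knockouts against wild types reach from -2.38 to 0.80, and from -0.86 to 0.58 without knockout replicate 1.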
